A study of Homo sapiens with 2 samples.

Results

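Chromosomes 17, 19 and 22 are known as gene-dense human chromosomes, and the 25082 nascent strand intervals that lie on them were taken from 161869 intervals in all. A member is any named interval of the 6 deposited replication timing lists on 1 of these 3 chromosomes, with each name counted once. Chromosome 17 held 9828 of them, chromosome 19 held 8675 and chromosome 22 held 6579. They are set against the 134408 intervals of the other 19 autosomes. The cells were wild-type U2OS, a human osteosarcoma line grown in RPMI medium with serum, which were arrested with a double thymidine block at the start of S phase and collected 2 hours after release. Short nascent DNA was size-selected and treated with exonuclease before library preparation. The 2 libraries, replicates 1 and 2, form 1 group and enter as 1 intersected set of intervals, and no unsynchronised or undigested sample was analysed here. Fold enrichment and -log10 q are values of replicate 1 peaks alone. Pieces shared by both libraries covered a median of 59.7% to 63.6% of an interval on the 3 chromosomes, so widths include bases outside those pieces. Read depth is unknown, and nothing in the labels says that the libraries came from separate cultures. Copy number of chromosomes 17, 19 and 22 in these cells was not examined, and its part in the values was not tested. The sources used here name no control library for peak calling.

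DNA replication starts at many origins, which are licensed before S phase and fire at different times within it. A nascent strand begins with an RNA primer that shields it from lambda exonuclease, so DNA that survives digestion is enriched near start sites. Gene-rich, GC-rich and transcribed regions are known to replicate early in most cell types, and gene-poor regions late.

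The label gene-dense was checked against the RefSeq gene table of GRCh38, from which only the number of protein-coding genes on each chromosome was used. Per 1 Mb window that held an interval there were 14.6 such genes on chromosome 17, 25.9 on chromosome 19 and 12.5 on chromosome 22, against 3.67 to 10.5 on the other autosomes. The 3 chromosomes thus had the highest values of the 22. The median GC content of RefSeq promoters, each 300 bases long, was 62.0% on chromosome 17, 62.7% on chromosome 19 and 63.0% on chromosome 22. On 18 other autosomes with promoters in the table it was 52.3% to 63.3%, the highest being on chromosome 16. The gene counts and promoters describe the chromosomes in GRCh38 and not the intervals, whose positions are in hg19. The windows that divide the gene counts are the hg19 windows that held an interval.

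Intervals were packed more closely on these chromosomes than on most others. The median number per 1 Mb window that held any was 113 on chromosome 17, 164 on chromosome 19 and 198.5 on chromosome 22, against 8.5 to 126 on the other autosomes with a median of 25. Chromosome 20 was the exception, with a density above that of chromosome 17 at 8.8 protein-coding genes per window. The mean difference was 124 intervals per window (two-sided exact permutation test over chromosomes, 3 against 19, adjusted p = 0.0065 over 10 tests). The order of the densities was known before, so this test is no independent evidence of it. In all such tests the unit is the chromosome, which is not a biological replicate, and the smallest p that 3 against 19 allows is 0.0013.

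**Figure D1:**
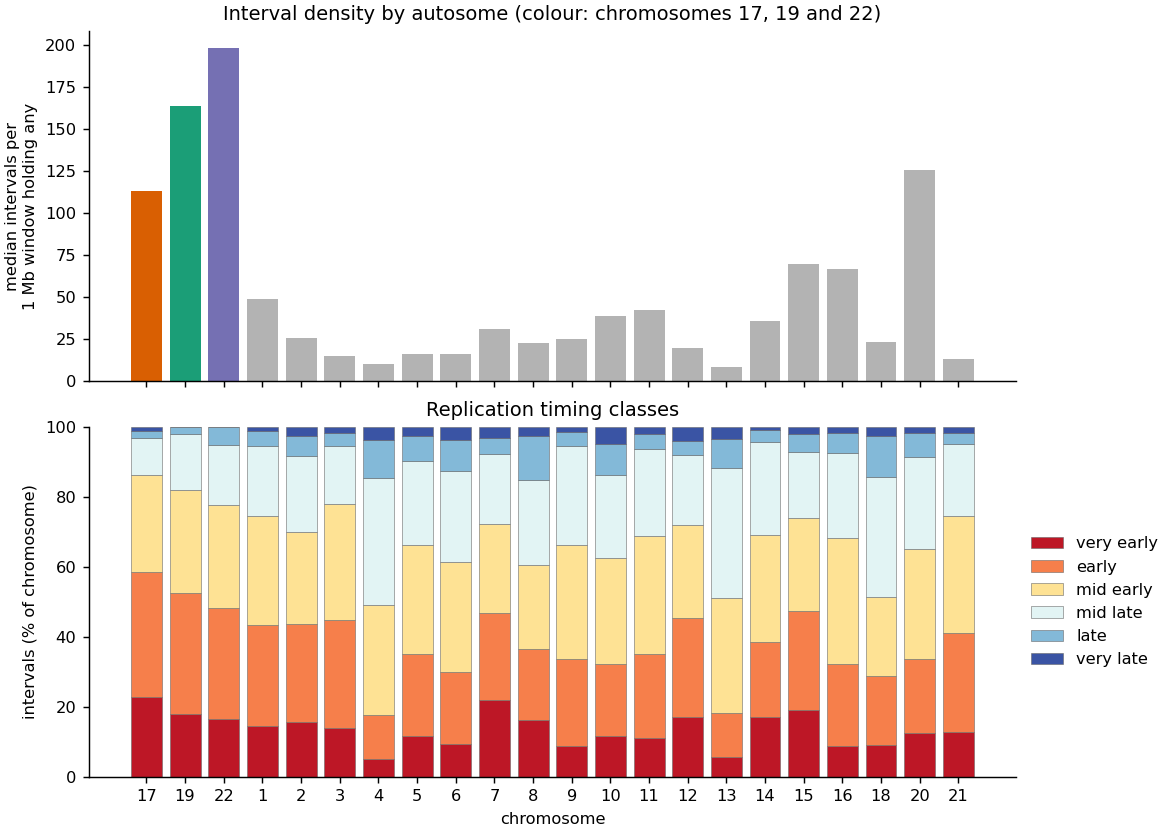
Top, median number of intervals per 1 Mb window that held any (bars from 0), and bottom, the percentage of each chromosome's intervals in the 6 timing classes, for chromosomes 17, 19 and 22 at the left and the other 19 autosomes after them. The 3 chromosomes stand at 113, 164 and 198.5 intervals per window, and of the other autosomes only chromosome 20, at 126, lies among them.

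More windows were dense on the 3 chromosomes, while their fullest windows were within the range of the others. Windows of 100 or more intervals made up 60% of those on chromosome 17, 76.8% on chromosome 19 and 86.1% on chromosome 22, against 4.26% to 55.7% on the other autosomes. Windows with fewer than 50 intervals made up 20%, 10.7% and 8.33% on chromosomes 17, 19 and 22, against 31.1% to 91.0% elsewhere. Medians of the other autosomes were 18.7% for the dense and 65.2% for the sparse windows. Neither range overlapped between the 3 chromosomes and the rest, but these shares restate the density, whose order was known before. The fullest single window held 283, 295 and 286 intervals on chromosomes 17, 19 and 22, against 209 to 311 on the other autosomes. On chromosome 19 it was chr19:1000001-2000000, where intervals covered 43.9% of the bases and 98.0% were in the 3 earlier classes. The fullest window of chromosome 22, chr22:37000001-38000000, held 41 very early, 215 early and 30 mid early intervals and none of a later class. That of chromosome 17, chr17:72000001-73000000, was of another kind, with 159 of its 283 intervals mid late and 42.4% in the 3 earlier classes.

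Density differed along every arm, most on the short arm of chromosome 19 and least on its long arm. Each arm was divided into 5 equal segments, numbered from 1 beside the centromere to 5 at the chromosome end. The centromere was placed at the widest stretch without an interval, chr17:22240272-25274838 (3035 kb) and chr19:24212519-28202114 (3990 kb). All intervals of chromosome 22, whose widest empty stretch was only 390 kb (chr22:16478151-16868414), were taken as long arm. Totals per arm were 112 intervals per Mb on the short and 131 on the long arm of chromosome 17, 159 and 156 on the short and long arms of chromosome 19, and 187 on chromosome 22. Within an arm no test was made, because segments of 1 arm are not replicates.

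On the long arm of chromosome 17, segment 5 held 249 intervals per Mb, the most of that chromosome, while segments 3 and 4 held 75.2 and 64.8. Segment 2 was the earliest, with 98.0% of its 1775 intervals in the 3 earlier classes and 45.6% very early. On its short arm, segment 3 stood apart with 44.7 intervals per Mb, 41.7% in the earlier classes, a median width of 366 bp and a median fold of 4.43. The other 4 segments of that arm had 91.7 to 148 intervals per Mb, widths of 664 to 757.5 bp and folds of 5.02 to 5.23. Sparse, late, narrow and weakly enriched intervals thus coincided in 1 stretch of that arm.

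The short arm of chromosome 19, which is known for clusters of zinc finger genes towards the centromere, had the steepest change. Segment 1 held 18.4 intervals per Mb with 30.3% in the earlier classes and none very early, against 163 to 261 per Mb and 92.8% to 98.1% in segments 2 to 5. Its 89 intervals were nevertheless 616 bp wide in the median and had a median fold of 4.99. Segment 5 was the densest of the 25 segments, at 261 per Mb, with a median width of 909 bp. The first segment of the long arm was late but not sparse, with 136 intervals per Mb, of which 21.2% were in the earlier classes and 65.6% were mid late. The last segment of that arm held 117 per Mb with 53.9% in the earlier classes. Chromosome 22 was dense throughout, at 140 to 247 intervals per Mb. Its segment 5 was both the densest and the latest, with 247 intervals per Mb and 47.6% in the earlier classes, against 83.5% to 95.6% in segments 1 to 4. Early timing and high density therefore did not always go together along these arms.

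**Figure D2:**
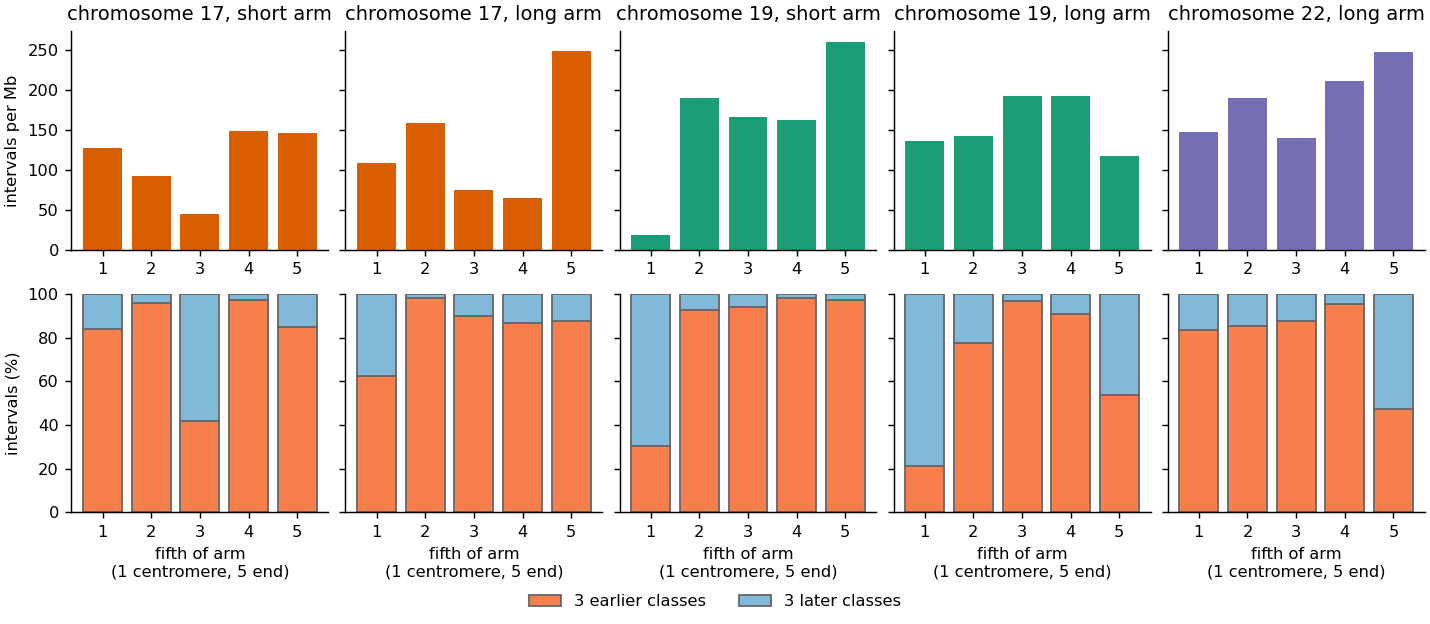
Intervals per Mb (top) and the percentage in the 3 earlier and 3 later timing classes (bottom) in 5 equal segments of each arm, from the centromere (1) to the chromosome end (5). The segment next to the centromere on the short arm of chromosome 19 is the sparsest at 18.4 per Mb, and the last segment of chromosome 22 has 247 per Mb with 47.6% in the earlier classes.

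Intervals on the 3 chromosomes belonged to earlier timing classes. The very early class held 4887 of the 25082 members, or 19.5% (exact 95% binomial interval 19% to 20%), against 13.5% (13.3% to 13.6%) on the other autosomes. The early class held 34.2% against 24.5%, and the mid early class 28.9% against 30.0%. Later classes were less populated, at 14.2% against 23.5% for mid late, 2.75% against 6.05% for late and 0.522% against 2.45% for very late. The binomial intervals reflect counting error alone, as if neighbouring intervals were independent. By chromosome, the 3 earlier classes together made up 86.3% on chromosome 17, 81.9% on chromosome 19 and 77.8% on chromosome 22. On the other autosomes they made up 49.0% to 78.0%, so the groups overlapped through chromosome 22 and chromosome 3. The mean difference was 16.0 percentage points (exact permutation test over chromosomes, adjusted p = 0.0065), and the values of chromosomes 17 and 19 were known before.

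Very late intervals were nearly confined to chromosome 17, which held 116 of the 131, against 6 on chromosome 19 and 9 on chromosome 22. More than 1 in 2 of those on chromosome 17 stood in a single uninterrupted run of 67 intervals, chr17:32646691-32971875, which spanned 325 kb. The very late intervals of chromosome 22 formed a run of 5 and a run of 4, chr22:48687213-48703521 and chr22:48982729-48988333.

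Timing domains on these chromosomes held more intervals, and those of chromosomes 19 and 22 spanned shorter stretches when all classes were pooled. A domain is taken here as an uninterrupted run of intervals of 1 class. The mean number of intervals per run was 13.2 on chromosome 17, 12.1 on chromosome 19 and 13.9 on chromosome 22, against 4.85 to 12.1 on the other autosomes. All 3 values exceeded those of all 19 others, of which chromosome 20 came nearest with 12.11 beside 12.15 on chromosome 19 (difference of means 4.86, exact permutation test, adjusted p = 0.0065). The median span of runs of 2 or more intervals was 54.9 kb, 41.2 kb and 41.6 kb on chromosomes 17, 19 and 22, against 47.1 to 76.9 kb elsewhere. The mean difference was -14.2 kb (exact permutation test, adjusted p = 0.011). It did not pass without chromosome 19 (-11.8 kb) or without chromosome 22 (-12.0 kb, adjusted p = 0.079 for both, exact permutation tests). Runs of all classes were pooled there, and spans within a class were not tested. Early runs had medians of 48.9, 37.3 and 37.0 kb on chromosomes 17, 19 and 22, inside the 31.6 to 56.5 kb of the others. Mid early runs had 49.9, 36.3 and 39.9 kb, against 42.5 to 73.1 kb.

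Neighbouring intervals had the same class in 92.4%, 91.8% and 92.8% of pairs on chromosomes 17, 19 and 22, against 79.4% to 91.8% on the other autosomes (difference 5.02 percentage points, exact permutation test, adjusted p = 0.0065). This share and the mean number of intervals per run both follow from the numbers of runs and intervals. The tests of them are therefore not separate evidence. Of the 1929 changes of class on the 3 chromosomes, 98.8% were to the adjacent class and 23 skipped at least 1 class. On the other autosomes 96.2% of 16101 changes were to the adjacent class, and the difference between these shares was not tested. Intervals were also more closely spaced on the 3 chromosomes, and the part of spacing in these shares was not tested.

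Runs differed among the 3 chromosomes. Very early runs had a median span of 80.2 kb on chromosome 17, 52.8 kb on chromosome 19 and 50 kb on chromosome 22. Mid late runs had medians of 56.4, 57.3 and 72.1 kb on the same chromosomes. The run with most intervals was mid late on chromosome 17, with 118 intervals over 426 kb (chr17:71675181-72101241). It was also mid late on chromosome 19, with 112 intervals over 492 kb (chr19:29723678-30215930). Chromosome 22 differed, since its most populous run was very early, with 141 intervals over 453 kb (chr22:27564027-28016602). Counted per 100 kb of run, mid late intervals numbered 22.2 on chromosome 22 against 9.7 on chromosome 17 and 13 on chromosome 19, and late intervals numbered 20.3 against 5.34 and 11.8.

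Within each of the 4 earlier timing classes, intervals on chromosomes 17, 19 and 22 were wider than on every other autosome. Very early intervals had a median width of 596 bp on chromosome 17, 675 bp on chromosome 19 and 603 bp on chromosome 22, against 340 to 558 bp on the other autosomes with a median of 485 bp. Early intervals had 710, 762 and 675 bp on chromosomes 17, 19 and 22, against 400 to 659 bp. Mid early intervals had 766, 773 and 766 bp, against 461 to 667 bp, and were the most alike among the 3 chromosomes. Mid late intervals had 622, 623.5 and 736 bp, against 422 to 603 bp. In none of these 4 classes, each taken separately, did the groups overlap. Averaged over the 4 classes on the log2 scale, the ratio was 1.31 (log2 difference 0.39, exact permutation test over chromosomes, adjusted p = 0.0013 over 4 measures), and each class passed on its own (adjusted p = 0.0022 over 20 tests, exact permutation test).

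Late intervals did not pass, with median widths of 434, 513 and 614 bp on chromosomes 17, 19 and 22, against 381 to 536.5 bp on the other autosomes (log2 difference 0.23, exact permutation test, adjusted p = 0.056). Without chromosome 17 they passed, with a log2 difference of 0.35 (adjusted p = 0.025, exact permutation test), as they did once intervals within 100 bp were merged (adjusted p = 0.049, exact permutation test). Chromosome 22 was high and chromosome 17 lay near the middle of the others, whose median was 431 bp. In the very late class only chromosome 17 had the 20 intervals required, so no test was made. Its median was 486.5 bp, within the 227 to 581.5 bp of the other autosomes.

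The whole width distribution was shifted, at its narrow as at its wide end. The 10th percentile was 210, 225 and 215.8 bp on chromosomes 17, 19 and 22, against 174 to 204 bp elsewhere. The 90th percentile was 2312, 2385 and 2371 bp, against 1345 to 2166 bp. Intervals of 3 kb or more made up 6.08%, 5.94% and 6.28% on chromosomes 17, 19 and 22, against 1.37% to 5.48% on the other autosomes and 3.95% on all autosomes together. The widest intervals were chr17:80004012-80022087 (18076 bp, mid early), chr19:36782959-36800709 (17751 bp, mid late) and chr22:50893140-50913221 (20082 bp, mid late). Their folds, 8.62, 3.81 and 8.57, were far below the highest folds described further on. Peaks of both libraries covered 73.9%, 33.5% and 74.7% of the bases of these intervals. The chromosome 19 interval overlapped 2 replicate 1 peaks, and its fold is that of the peak sharing most bases with it.

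Enrichment differed in the same direction by a smaller ratio. Fold enrichment and the -log10 q are the authors' values for a peak of replicate 1, each interval taking those of the peak that shares most bases with it, and replicate 2 has no fold of its own here. Very early intervals had a median fold of 4.8 on chromosome 17, 5.18 on chromosome 19 and 4.85 on chromosome 22, against 4.30 to 4.74 on the other autosomes. Early intervals had 4.97, 5.44 and 4.91 on chromosomes 17, 19 and 22, against 4.40 to 4.99, so that chromosome 16 lay above chromosomes 17 and 22. Mid early intervals had 5.27, 5.61 and 5.24, against 4.54 to 4.98. Chromosome 19 was the highest of the 3 in these classes, and chromosomes 17 and 22 differed little from each other. Mid late intervals had 4.85, 4.93 and 4.94, against 4.46 to 4.90.

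Over the 4 classes the ratio of folds was 1.09 (log2 difference 0.13, exact permutation test, adjusted p = 0.0013 over 4 measures). By class the adjusted p was 0.0022 for very early and mid early, 0.010 for early and 0.0056 for mid late intervals (exact permutation tests over 20). Late intervals had medians of 4.49, 4.31 and 4.62 on chromosomes 17, 19 and 22 against 4.24 to 5.04, and did not pass (adjusted p = 0.63, exact permutation test). When only peaks reaching a -log10 q of 5 were kept, the difference no longer passed for very early (log2 0.062, adjusted p = 0.17) and mid late intervals (0.028, adjusted p = 0.22, exact permutation tests), although the -log10 q is not independent of the fold. Without chromosome 19 it did not pass for early intervals (log2 0.074, adjusted p = 0.071, exact permutation test).

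The -log10 q was higher as well, with a ratio of 1.23 over the 4 classes (log2 difference 0.30, exact permutation test, adjusted p = 0.0013). Mid early intervals had medians of 6.79, 6.95 and 6.93 on chromosomes 17, 19 and 22, against 4.76 to 5.97 on the other autosomes. Very early intervals had 5.39, 5.92 and 6.17, against 3.98 to 5.50, so that chromosome 20 lay above chromosome 17. Late intervals did not pass (log2 difference 0.054, adjusted p = 0.52, exact permutation test). Mid late intervals did not pass when only peaks reaching a -log10 q of 5 were kept (log2 0.12, adjusted p = 0.087, exact permutation test). Same-class neighbours were also closer together, the median gap being 0.598 of that on the other autosomes over the 4 classes (log2 difference -0.74, exact permutation test, adjusted p = 0.0013). Gaps are closely tied to density, whose order was known before, so the tests of spacing are no independent evidence of closer packing. Mid early intervals lay 1437.5, 1646.5 and 1359 bp apart on chromosomes 17, 19 and 22, against 1681.5 to 3968.5 bp. Very early intervals lay 2099, 2045 and 1821 bp apart, against 2271 to 15573 bp. For mid late intervals the distances were 1857, 2237 and 1241 bp against 1896.5 to 5810 bp, with chromosome 22 the closest spaced and chromosome 19 inside the range of the others. That class passed with all 3 chromosomes (log2 difference -0.78, adjusted p = 0.018), but neither without chromosome 22 (-0.54, adjusted p = 0.13) nor without chromosome 17 (-0.83, adjusted p = 0.063), and it missed the threshold narrowly with peaks of -log10 q 5 or more (-0.64, adjusted p = 0.0501, exact permutation tests). Late intervals did not pass, with 3930, 3178 and 1556 bp against 2780 to 12946.5 bp (log2 difference -0.79, adjusted p = 0.053, exact permutation test). They passed without chromosome 17 (-1.07, adjusted p = 0.045) and once intervals within 100 bp were merged (-0.79, adjusted p = 0.049, exact permutation tests).

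**Figure D3:**
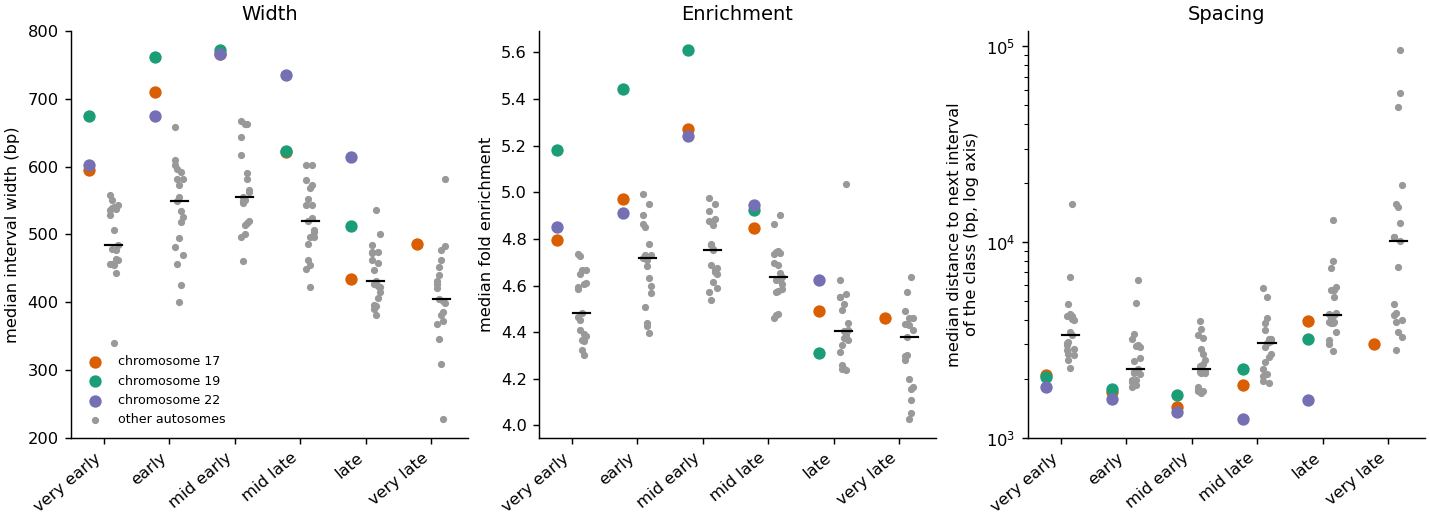
Median interval width, median fold enrichment and median gap to the next same-class interval (log axis) in each timing class, with coloured points for chromosomes 17, 19 and 22, grey points for other autosomes and a black line at the grey median; classes with fewer than 20 values on a chromosome are left out. In the very early to mid late classes every coloured width lies above every grey one, while late intervals overlap.

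The course over the timing programme was not shown to differ. The log2 ratio of very early to mid late median width was -0.062, 0.11 and -0.29 on chromosomes 17, 19 and 22, against -0.42 to 0.26 on the other autosomes. The mean difference was 0.0032 (exact permutation test, adjusted p = 0.93). For the fold the log2 ratios were -0.016, 0.073 and -0.028, against -0.14 to 0.055 (difference 0.054, exact permutation test, adjusted p = 0.13). Chromosome 19 had wider and more enriched intervals in the very early than in the mid late class, and chromosome 22 the reverse.

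Set side by side at like local density, intervals of these chromosomes and of the other autosomes showed smaller ratios of width and fold than within timing classes. Windows of 1 Mb were grouped by the intervals they held, a comparison chosen after the data were examined. Medians in these windows pool all timing classes, so their ratios differ from those within timing classes in more than local density. In windows of 100 to under 200 intervals the median width was 666.5 bp on chromosome 17, 675 bp on chromosome 19 and 597 bp on chromosome 22, against 532.5 to 681 bp on the other autosomes. The ratio was 1.09, against 1.31 within timing classes (log2 difference 0.12, unadjusted p = 0.044, adjusted p = 0.12 over 9 added tests, exact permutation test). Windows of 50 to 99 intervals had widths of 514, 510 and 467 bp on chromosomes 17, 19 and 22, against 351 to 527 bp (ratio 1.13, adjusted p = 0.12, exact permutation test). Windows of 200 or more had 780, 815 and 764.5 bp, against 725.5 to 1282 bp, with a ratio of 0.953 (adjusted p = 0.85, exact permutation test). The 1282 bp came from 1 window on chromosome 14, while the 3 chromosomes had 15 to 18 such windows each. Median widths were larger in denser windows on both sides, and in the densest windows the 3 chromosomes lay inside the range of the others.

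Folds were compared in the same windows. With 50 to 99 intervals the median fold was 4.60 on chromosome 17, 4.59 on chromosome 19 and 4.41 on chromosome 22, against 4.16 to 4.55 on the other autosomes (ratio 1.03, unadjusted p = 0.049, adjusted p = 0.12, exact permutation test). Chromosomes 17 and 19 stood above all the others there, and chromosome 22 among them. In windows of 100 to under 200 intervals the median fold was 4.96, 5.17 and 4.73 on chromosomes 17, 19 and 22, against 4.60 to 4.97 (ratio 1.03, adjusted p = 0.17, exact permutation test). In windows of 200 or more it was 5.19, 5.59 and 5.16, against 5.04 to 5.91 (ratio 1.00, adjusted p = 0.90, exact permutation test). The 5.91 came from 1 window on chromosome 14, and the next highest of the others, 5.59, from 1 window on chromosome 6. Chromosome 19 was the highest of the 3 in these denser groups of windows, and chromosome 17 in the sparser one. A p above the threshold does not show that widths and folds are equal at like density, and chromosome 22 had only 2 windows of 50 to 99 intervals. The share of the 3 earlier classes ran in different directions, and no difference passed. In windows of 50 to 99 intervals they made up 81.1%, 29.5% and 46.0% on chromosomes 17, 19 and 22, against 38.5% to 81.9% on the other autosomes, a difference of -13.6 percentage points (adjusted p = 0.19, exact permutation test). They made up 87.4%, 75.5% and 95% in windows of 100 to under 200 intervals on chromosomes 17, 19 and 22, against 34.8% to 92.1% elsewhere, a difference of 15.6 percentage points (adjusted p = 0.12, exact permutation test). In windows of 200 or more they made up 90.4%, 96.5% and 72.1%, against 37.4% to 100%, a difference of 14.6 points (adjusted p = 0.19, exact permutation test). Both ends of that range came from 1 window each, on chromosomes 18 and 6. Density, width and fold were all read from 1 peak set, and the part of peak calling in the widths was not tested.

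**Figure D4:**
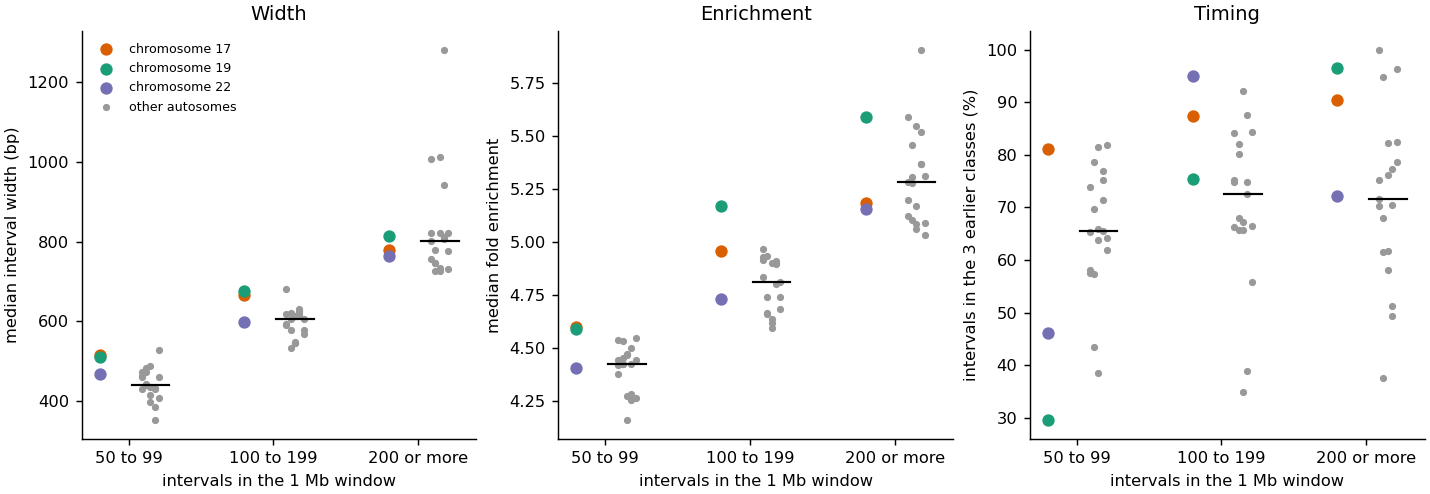
Median width, median fold and the percentage of intervals in the 3 earlier timing classes by the number of intervals in the 1 Mb window, with coloured points for chromosomes 17, 19 and 22, grey points for other autosomes with at least 20 intervals there and a black line at the grey median. Widths are larger in denser windows in both, and at 200 or more intervals the 3 chromosomes (764.5 to 815 bp) lie within the range of the others.

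Over all classes, the share of strongly enriched intervals was above the range of the other autosomes on chromosome 19 and within it on chromosomes 17 and 22. A fold of 20 or more was reached by 329 of 25054 members with a fold (1.31%), where the share on all autosomes together was 0.906%. Chromosome 19 held 178 of them, or 2.05% of its intervals (exact 95% binomial interval 1.77% to 2.37%). Chromosome 17 held 83 (0.846%, 0.674% to 1.05%) and chromosome 22 held 68 (1.03%, 0.804% to 1.31%). The other autosomes had 0.436% to 1.14%. For the 3 chromosomes together the difference did not pass (0.465 percentage points, exact permutation test, adjusted p = 0.098), and without chromosome 19 it was 0.094 points (adjusted p = 0.56, exact permutation test). No test sets chromosome 19 alone against the rest, since it was singled out after its value was seen.

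By class, the share of such intervals among very early members was 1.09% where all autosomes together had 0.718%, and among early members 1.28% where all autosomes had 0.853%. Mid early members had 1.51% where all autosomes had 1.02%, and mid late members 1.30% where all autosomes had 0.997%. Later classes held few, with 10 of 690 late members (1.45%, all autosomes 0.771%) and 1 of 131 very late members (0.763%, all autosomes 0.672%). The differences by class, tested with the chromosome as unit, did not pass in any of the 5 classes tested, very early to late (0.27 to 0.62 percentage points, adjusted p = 0.11 to 0.22, exact permutation tests). In the very early class chromosome 19 stood at 2.19%, while chromosomes 17 and 22 had 0.537% and 0.64%, below all autosomes together. The very early difference of 0.53 points was -0.0022 points without chromosome 19. Chromosome 19 had 1.93% in the early and 2.55% in the mid early class. In the mid late class its 1.43% was matched or exceeded by chromosomes 4, 18 and 21, at 1.44%, 1.68% and 1.75%. In the late class it had 1 of 160 (0.625%), and 7 of the 10 late members were on chromosome 22, at 2.10% of 333, against 0% to 1.37% on the other autosomes. The 178 intervals had a median width of 1450.5 bp. Along the chromosome they were most frequent in segment 4 of the long arm, at 3.54% of 1187 intervals, and in segment 2 of that arm, at 3.18% of 881. Segment 1 of the short arm had 0 of 89 intervals.

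**Figure D5:**
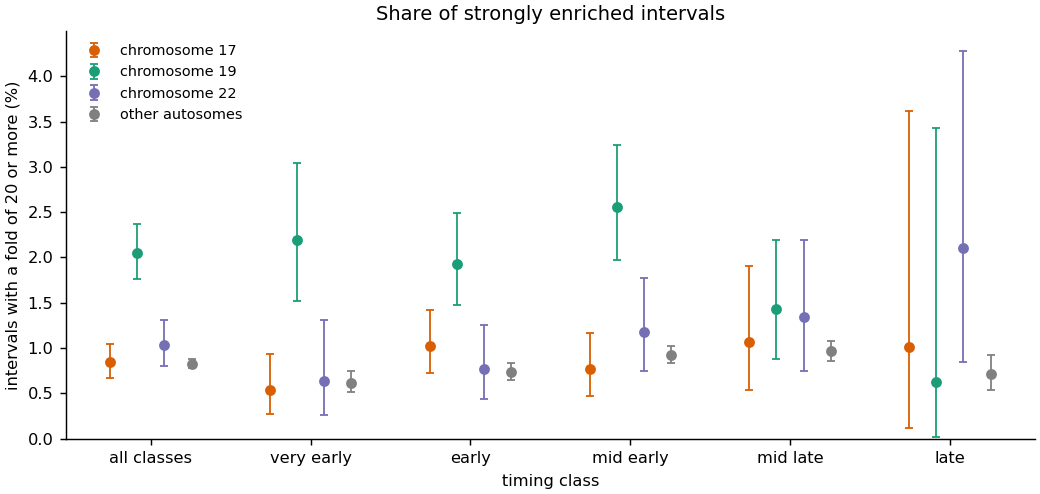
Percentage of intervals with a fold enrichment of 20 or more, over all classes and by timing class, on chromosomes 17, 19 and 22 and on the other autosomes together; bars are exact 95% binomial intervals for counting error. Chromosome 19 stands at 2.05% over all classes, and chromosomes 17 and 22 at 0.846% and 1.03%.

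The most enriched intervals of each chromosome were spread over the timing classes. On chromosome 17 the top 3 were chr17:21360878-21362281 at 86.0-fold (mid early, 1404 bp), chr17:38107602-38110086 at 78.5-fold (very early, 2485 bp) and chr17:80460696-80461978 at 63.1-fold (early, 1283 bp). On chromosome 19 they were chr19:6361590-6362509 at 107-fold (very early, 920 bp), chr19:4247035-4247702 at 96.2-fold (very early, 668 bp) and chr19:39074315-39075739 at 85.3-fold (mid early, 1425 bp). On chromosome 22 the first 2 were late, chr22:48491579-48493479 at 88.3-fold (1901 bp) and chr22:49432608-49433554 at 80.9-fold (947 bp). The third was early, chr22:25075230-25075913 at 70.7-fold (684 bp). Peaks of both libraries covered at least 84.6% of the bases in 7 of these 9 intervals. The exceptions were the second on chromosome 19, with 19.8% covered, and the second on chromosome 22, with 47.4%.

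Of the remaining classes, the most enriched early interval was chr19:18746466-18749443 at 71.1-fold and the most enriched mid late interval was chr19:33210882-33211774 at 68.7-fold. Among very late intervals the highest was chr17:32762091-32762544 at 28-fold, which lies inside the run of 67 very late intervals. Genes at these positions were not analysed here.

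Peaks of replicate 1 were also retained more often in the shared set. The share of replicate 1 peak numbers on a chromosome that appear in the shared list was 75.1% on chromosome 17, 73.2% on chromosome 19 and 79.7% on chromosome 22, against 64.2% to 75.3% on the other autosomes. The difference was 5.81 percentage points (exact permutation test, adjusted p = 0.0078), and 3.96 without chromosome 22 (adjusted p = 0.057, exact permutation test). Chromosome 22 alone lay above all other autosomes, and chromosome 20 lay above chromosomes 17 and 19. Bases covered by peaks of both libraries made up a median of 60.9%, 59.7% and 63.6% of an interval on chromosomes 17, 19 and 22, against 57.5% to 62.2% (difference 1.58 points, exact permutation test, adjusted p = 0.13).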

How the data were processed

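Per the submitters' processing notes, reads were processed with BWA and MACS2 on hg19, with no versions or parameters given in the sources used here. The deposited broad peak list holds pieces shared by both libraries, each with the fold enrichment ratio and the -log10 q of its replicate 1 peak. The deposited score there follows the -log10 q, and in the 6 timing lists the deposited score is the constant 1000, so scores were not used. The sources used here give neither the timing data nor the rule of classification.

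Names on 2 lines (4600 of the members, all very early) were taken as 1 interval. An interval took the values of the peak that shared most bases with it, and 28 members had none. Medians were taken per chromosome and timing class, with at least 20 intervals, and the mean log2 medians of 3 and 19 chromosomes were compared by two-sided exact permutation tests with Benjamini-Hochberg adjustment at 0.05 within families of 4, 20, 10, 9 and 10 tests. Of the tests, only that of width over the 4 earlier classes was tried on simulated data. Widths were shuffled there within each class, which does not keep their order along a chromosome. Positions are 1-based. The members, tests and measures were chosen with earlier results of these data known. Named were, per chromosome, the 3 highest folds, the widest interval, the most populous run, the fullest window and the widest empty stretch, and the highest fold of each class; other items were named after their values were seen. Tests ran in scipy 1.17.1 and plots in matplotlib 3.10.9, with pandas 2.3.3 and numpy 2.4.6 under Python 3.11.15.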

Additional observations from a re-analysis of the deposited data

Results flagged for a closer look

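Peaks outside the intervals described above were found on and beside these chromosomes, in numbers above 3, the cut-off set for flagging them. The shared list held 199201 pieces in all, and the other autosomes were not counted in this way. Contigs assigned to chromosome 17 but not placed on it held 165 shared pieces, with folds of 2.94 to 20.5, and those of chromosome 19 held 13, with folds of 3.58 to 14.4. On the chromosomes themselves, 185 pieces on chromosome 17, 111 on chromosome 19 and 94 on chromosome 22 overlapped no named interval of the timing lists. Their median folds were 7.19, 7.37 and 7.31.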

How the results depend on the processing

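Across the settings tried, the log2 differences over the 4 earlier classes kept their direction and passed the permutation test, from 0.32 to 0.47 for width, 0.069 to 0.14 for fold, 0.17 to 0.35 for -log10 q and -0.98 to -0.61 for spacing. Timing run length did not pass without chromosome 19 (-11.8 kb) or 22 (-12.0 kb), nor did retention without chromosome 22 (3.96 points); fewer chromosomes raise the smallest p. The difference in shared bases passed with intervals of at least 200 bp (2.86 points), and that in 20-fold intervals without the first and last 5 Mb (0.587 points). Some differences that had not passed changed sign. For the width ratio of very early to mid late they were -0.19 without the chromosome ends, -0.029 without chromosomes 4, 13 and 18, -0.0051 without chromosome 17 and -0.093 without chromosome 19. For late intervals, fold and -log10 q gave -0.063 and -0.14 without the ends and -0.012 and -0.014 without chromosome 22. Fold in windows of 200 or more intervals gave -0.036 without chromosome 19 and -0.0020 without chromosome 20. The very early share of 20-fold intervals differed by 0.531 points with all 3 chromosomes and by -0.0022 points without chromosome 19. Single-class calls for late and mid late spacing, late width, mid late -log10 q and fold also changed, as given beside them. The causes were not tested. The other settings were a -log10 q of at least 5, every line counted (not run for spacing, where repeated lines overlap), 50 intervals per class, the highest overlapping value, merging within 100 bp and 500 kb windows. Requiring 50 intervals could not change the differences over the 4 earlier classes, because every autosome had more than that in each. Leaving out chromosome 20 was added after the data were examined. No paired analysis was possible because both libraries enter as 1 set, and for the same reason no replicate could be left out. Read depth is unknown.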

Other observations

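Chromosome 16 was the autosome nearest to the 3 in several measures. It had 10.5 protein-coding genes per window, a median interval width of 608 bp over all classes and 5.48% of intervals at 3 kb or more, each the highest of the 19 other autosomes. Its density was 67 intervals per window. Chromosome 20 combined a density of 126 with a median width of 576 bp, and 65.1% of its intervals were in the 3 earlier classes. In the mid early class its median width was 663 bp, beside 667 bp on chromosome 16, the highest of the other autosomes. Beyond the comparison at like local density given above, the part of density in the widths was not tested.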
